A study of Mus musculus with 4 samples.

Results

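The 10 genes described here, Dusp1, Dusp2, Dusp4, Dusp5, Dusp6, Dusp7, Dusp10, Spry1, Spry2 and Spred1, encode negative feedback proteins of the MAP kinase pathway, and they were followed among the 35275 genes of the count table. They were chosen by function, and the choice was prompted by the difference of Dusp5 between the genotypes, so every genotype fold of these genes is given as a description without a test. The step between the sorted thymocyte populations was not used for the choice and was tested. RNA was sequenced from thymocytes of untreated C57BL/6 mice (age 6 to 8 weeks). Flow cytometry separated the cells into group 2 (TCRβint CD69hi) and group 3 (TCRβhi CD69hi), consecutive stages around positive selection. Each stage was taken from Uba3F/F mice, called WT, and from Uba3ΔT mice, called KO, whose genotype the labels give as Uba3-/-. Uba3 is the catalytic subunit of the NEDD8-activating enzyme. Each of the 4 groups held 1 library, the driver of the deletion is not named in the labels, and how many mice gave cells to a library is not stated either. Genotype, mouse and library therefore cannot be told apart.

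The libraries held between 8043077 and 10299863 counts. The cell type field of the labels calls both WT libraries group 2 and both KO libraries group 3, against their titles and the series design, and the titles were used. In the fit over all 4 libraries, genes of mature thymocytes were higher in the libraries titled group 3, with 6 of 8 passing the test, among them Ccr7 at a fitted log2 fold of 1.75 ± 0.144 (SE, edgeR's quasi-likelihood test, adjusted p = 1.58e-30). Uba3 itself was not lower in the KO libraries. Its level was 43.2 CPM (depth-scaled counts) in WT group 2 and 43.6 in WT group 3. It was 73.2 in KO group 2 and 90 in KO group 3. These counts cover the whole gene, and which exons were deleted is not known, so they cannot check the label. The libraries are called "labelled KO" below. All 13 thymocyte markers were detected in every library, and their summed level was between 21470.6 and 27145.4 CPM.

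When the T cell receptor is engaged, Ras switches on a chain of kinases that ends in ERK, and ERK enters the nucleus and induces early response genes. Some of these early genes encode the brakes of the same chain. Dual specificity phosphatases remove the activating phosphates from MAP kinases: DUSP1, DUSP2, DUSP4 and DUSP5 act in the nucleus, DUSP6 and DUSP7 act on ERK in the cytoplasm, and DUSP10 prefers p38 and JNK. Sprouty and Spred proteins act higher up, between the receptor and RAF. In thymocytes the strength and duration of ERK signalling is part of what separates positive from negative selection.

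RefSeq promoters (GRCm38.p6) were found for 9 of the 10 genes, as the 250 bases before the annotated start. They were searched on both strands for the SRF CArG box (by name), the AP-1 site TGANTCA, the CRE TGACGTCA and its core TGACG, which every full CRE also holds, the ETS site CCGGAA, the EGR site GCGNGGGCG and the NFAT site GGAAAA. Dusp5 held 2 CArG boxes side by side, with first bases at -82 and -72 from the start, where 1.47% of the 32807 mouse promoters of this length hold at least 1. It also held a CRE core at -55, a match found in 17.8% of promoters. Dusp1 held a full CRE at -143, found in 1.55% of promoters, and a further core at -191. Dusp2 held an EGR site at -98, found in 4.7%. Spry2 held 2 NFAT sites, a match found in 20.4%. The windows of Dusp6, Dusp7, Dusp10, Spry1 and Spred1 held no match to these letters, and none of the 9 windows held an AP-1 site or an ETS site, which 6.75% and 12% of promoters hold. A match is a string of letters and was not measured as a bound site. The 4 promoters below belong to the highest members, Dusp2 and Dusp1, and to Dusp5 and Dusp10, both past 2-fold between the group 2 libraries. They are printed 5′ to 3′ on the gene's strand, without bases that GENCODE places in an exon of the gene or in a UTR of any gene, and capitals mark the matches. The RefSeq starts of Dusp1, Dusp5 and Dusp10 lie inside the longer GENCODE genes. Positions count from the RefSeq start, and the printed Dusp1 and Dusp5 sequences end before it. Dusp5 is read from chr19:53528895-53529108 (plus strand), Dusp1 from chr17:26508520-26508722 (minus strand), Dusp2 from chr2:127335909-127336158 (plus strand) and Dusp10 from chr1:184034131-184034380 (plus strand).
Dusp5: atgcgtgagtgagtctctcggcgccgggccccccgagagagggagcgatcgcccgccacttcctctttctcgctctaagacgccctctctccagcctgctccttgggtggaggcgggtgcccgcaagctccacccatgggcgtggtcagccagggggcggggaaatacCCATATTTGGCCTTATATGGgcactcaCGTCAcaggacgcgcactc
Dusp1: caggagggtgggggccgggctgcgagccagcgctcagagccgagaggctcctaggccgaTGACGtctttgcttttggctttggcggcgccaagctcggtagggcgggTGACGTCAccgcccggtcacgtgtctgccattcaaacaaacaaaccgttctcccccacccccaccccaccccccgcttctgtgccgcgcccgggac
Dusp2: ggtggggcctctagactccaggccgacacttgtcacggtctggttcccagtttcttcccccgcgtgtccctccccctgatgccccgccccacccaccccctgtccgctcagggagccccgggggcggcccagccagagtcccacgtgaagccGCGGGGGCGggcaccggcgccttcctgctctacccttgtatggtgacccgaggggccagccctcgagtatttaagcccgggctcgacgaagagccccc
Dusp10: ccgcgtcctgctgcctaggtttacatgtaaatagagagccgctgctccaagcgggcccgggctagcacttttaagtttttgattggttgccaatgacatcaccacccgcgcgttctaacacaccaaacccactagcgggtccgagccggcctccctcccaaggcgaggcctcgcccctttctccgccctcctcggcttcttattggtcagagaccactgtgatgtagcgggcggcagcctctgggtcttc

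The phosphatase genes covered a wide range of levels. On the deposited RPKM scale, which divides by gene length and so allows genes to be compared, Dusp2 was the highest in every library, between 773 and 876, and Dusp1 was next, between 435 and 703. Dusp10 lay between 161 and 321, Dusp5 between 97.8 and 276, and Dusp6 between 67.8 and 128. Thus the main nuclear phosphatases, the p38 and JNK phosphatase and the cytoplasmic ERK phosphatase Dusp6 were all abundant in these cells. The other members were lower. Dusp7 lay between 11.3 and 27.4 RPKM, Spry1 between 12.1 and 23.6, Dusp4 between 5.95 and 13.7, and Spred1 between 4.29 and 6.82. Spry2 was near the limit of detection, with 6, 8, 15 and 7 counts in WT group 2, WT group 3, labelled KO group 2 and labelled KO group 3, and it was the only member below the filter of 2 CPM in at least 1 library, which 12490 genes passed.

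The order of the first 5 genes was the same in all 4 libraries. Dusp2 and Dusp1 did not overlap in range over the libraries, and neither did Dusp1 and Dusp10, Dusp6 and Dusp7, or Spred1 and Spry2. The ranges of Dusp10 and Dusp5 overlapped, as did those of Dusp5 and Dusp6, Dusp7 and Spry1, Spry1 and Dusp4, and Dusp4 and Spred1. Spry1 was above Dusp7 in both group 2 libraries and below it in both group 3 libraries. Spred1 was above Dusp4 in WT group 2 alone. These are bulk libraries, in which fewer cells of a type and less RNA per cell cannot be told apart.

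**Figure D1:**
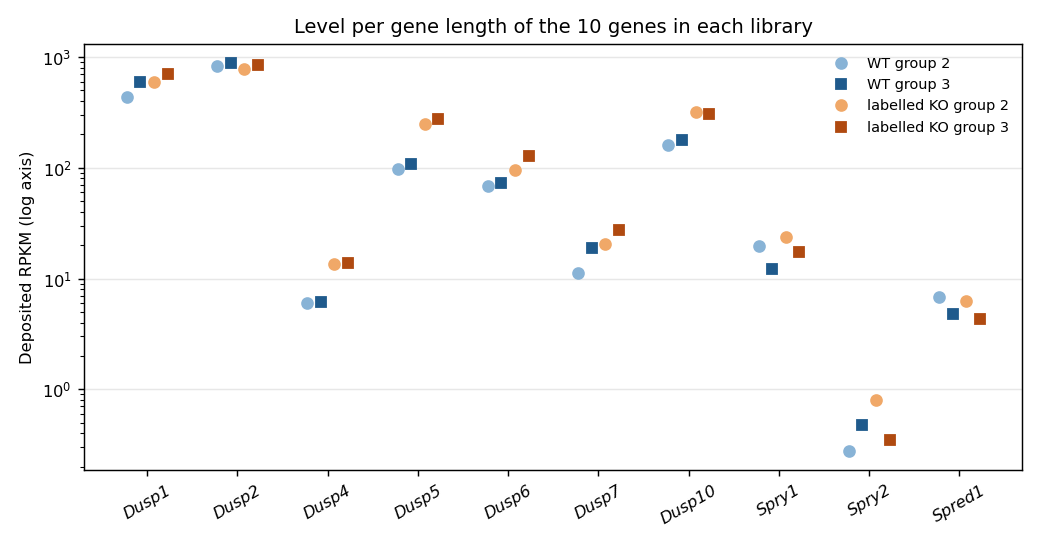
Deposited RPKM (vertical log axis) of the 10 genes (horizontal axis), with 1 point per library: circles are group 2, squares group 3, blue WT and orange the libraries labelled KO. Dusp2 stays between 773 and 876 in all libraries, and Dusp5 lies at 97.8 and 108 in WT and at 247 and 276 in the libraries labelled KO.

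The nuclear ERK phosphatase Dusp5 and its relative Dusp4 were more than 2-fold higher in the library labelled KO than in WT in both sorted groups, and Dusp10 was past 2-fold in group 2. A gene was counted as past 2-fold when its TMM-scaled CPM plus 0.5 differed at least 2-fold between the libraries. The 95% counting interval of its ratio of TMM-scaled counts also had to exclude 1, and the gene had to pass the filter. In group 2 this held for 3 of the 10 genes in the higher direction and for 0 in the lower, where 6.45% of the 12490 measured genes were past 2-fold higher and 2.45% lower. In group 3 it held for 2 higher and 0 lower, beside 2.2% and 5.6% of all measured genes. The median log2 genotype fold of the 10 genes was 0.705 in group 2 and 0.574 in group 3. Without Spry2, which did not pass the filter, the median of the 9 measured members was 0.544 and 0.575. For all measured genes it was 0.000189 and -0.00258. Nothing is read from these counts, since the contrast was used in choosing the genes.

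Dusp5 (chr19:53529109-53542431, mm10, plus strand), an ERK-specific nuclear phosphatase induced by ERK itself, had 2490 counts in WT group 2, 2144 in WT group 3, 5481 in labelled KO group 2 and 6611 in labelled KO group 3. On the TMM-scaled CPM scale these were 237, 263, 620 and 695. Both WT libraries were low and both labelled KO libraries high, with no overlap. The ratio of labelled KO to WT was 2.61 (95% counting interval 2.49 to 2.74) in group 2 and 2.65 (2.52 to 2.78) in group 3.

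Dusp4 (chr8:34807297-34819894, plus strand), a nuclear phosphatase of ERK, p38 and JNK, followed at a far lower level, with 16 CPM in WT group 2, 16.4 in WT group 3, 37.9 in labelled KO group 2 and 38.4 in labelled KO group 3. The counts behind these were 168, 134, 335 and 365, and again the 2 genotypes did not overlap. The ratio was 2.37 (1.96 to 2.86) in group 2 and 2.34 (1.91 to 2.87) in group 3.

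Dusp1 (chr17:26505590-26562128, minus strand), the immediate early phosphatase of p38, JNK and ERK, had 732, 1014.1, 1024.9 and 1228.4 CPM in the same order of libraries. WT group 3 and labelled KO group 2 were nearly level, so the genotypes were apart only within each sorted group. The ratio was 1.4 (1.36 to 1.44) in group 2 and 1.21 (1.18 to 1.25) in group 3. Dusp2 (chr2:127336159-127338376, plus strand), also called PAC-1 and known from activated T cells, was the most even member at 960, 1024.4, 931 and 1032.9 CPM. Its ratios were 0.97 (0.942 to 0.998) and 1.01 (0.979 to 1.04), and with plain library totals its log2 fold was below 0 in group 3 too, at -0.0358.

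Of the cytoplasmic ERK phosphatases, Dusp6 (chr10:99263231-99267489, plus strand) had 186, 201, 272 and 364 CPM, with both labelled KO libraries above both WT libraries. Its ratio was 1.46 (1.37 to 1.55) in group 2 and 1.81 (1.71 to 1.92) in group 3. Dusp7 (chr9:106368632-106375724, plus strand) had 15.4, 25.7, 28.4 and 38.6 CPM, and the labelled KO libraries were again the 2 highest, though WT group 3 was close to labelled KO group 2. Its ratio was 1.85 (1.51 to 2.27) in group 2 and 1.5 (1.26 to 1.79) in group 3. Dusp10 (chr1:184013302-184075636, plus strand), the phosphatase that prefers p38 and JNK, had 277, 309, 572 and 547 CPM. The 2 genotypes stood well apart, with ratios of 2.06 (1.97 to 2.16) in group 2 and 1.77 (1.69 to 1.86) in group 3. With plain library totals in place of TMM factors, Dusp10 lay just under 2-fold in group 2, at a log2 fold of 0.998.

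Of the Ras-level brakes, Spry1 (chr3:37639947-37644598, plus strand), a Sprouty protein that limits Ras activation and T cell receptor signalling, had 50.1, 30.5, 61.4 and 45.6 CPM, and the genotypes overlapped because WT group 2 lay above labelled KO group 3. Within the sorted groups the ratio was 1.23 (1.09 to 1.39) and 1.5 (1.28 to 1.75). Spred1 (chr2:117121374-117182279, plus strand), which brings the Ras inactivator neurofibromin to the membrane, had 25, 17.5, 23.8 and 16.3 CPM. Its ratios were 0.951 (0.789 to 1.14) and 0.93 (0.736 to 1.18), so no genotype difference was detectable beyond counting error. Spry2 (chr14:105891947-105896819, minus strand) had ratios of 2.97 (1.09 to 9.33) and 0.751 (0.232 to 2.37), intervals too wide for a direction over both groups.

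**Figure D2:**
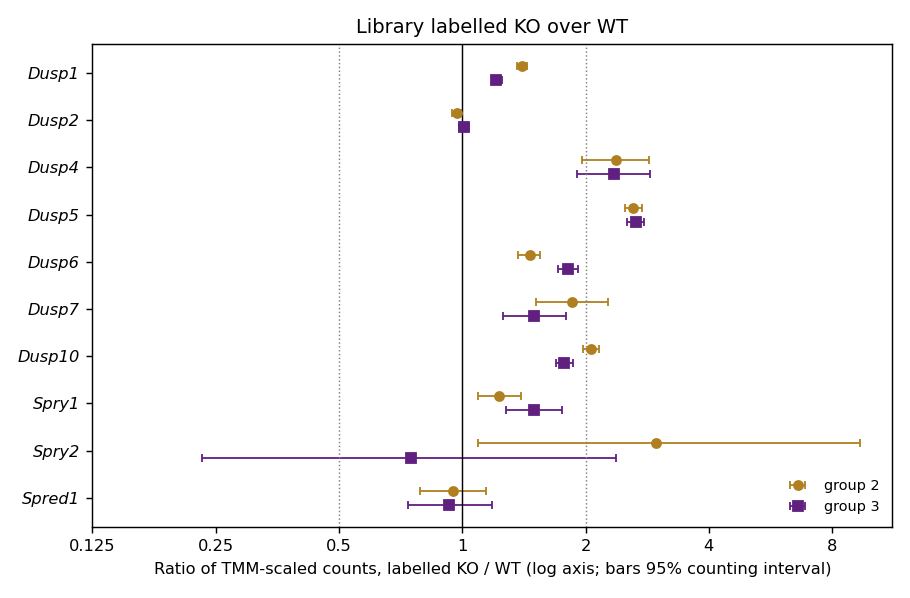
Ratio of the library labelled KO to WT (horizontal log axis) for the 10 genes (vertical axis) in group 2 (circles) and group 3 (squares), with 95% counting intervals as bars and dotted lines at 2-fold. Dusp5 lies at 2.61 and 2.65 and Dusp4 at 2.37 and 2.34, while Dusp2 and Spred1 lie near 1 and Spry2 has the widest intervals.

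The genotype ratio of some members was not the same size in the 2 sorted groups. The log2 fold in group 3 minus that in group 2 was 0.0191 for Dusp5 (counting interval -0.0789 to 0.117) and -0.0172 for Dusp4 (-0.408 to 0.374), so their ratios did not differ beyond counting error. It was 0.312 for Dusp6 (0.191 to 0.433) and 0.286 for Spry1 (0.00205 to 0.569), whose ratios were larger in group 3. It was -0.209 for Dusp1 (-0.269 to -0.15) and -0.223 for Dusp10 (-0.318 to -0.128), whose ratios were larger in group 2. The intervals cover counting error only. Across all genes the common dispersion of 0.0288 puts the standard deviation of such a difference of log2 folds at 0.489, more than any of these 4 differences. That value is pooled over genes of all levels and was not estimated for these members. It therefore does not decide whether their differences exceed their own spread.

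From group 2 to group 3, when thymocytes raise their T cell receptor and mature, none of the phosphatase genes was past 2-fold, and both Ras-level brakes that were measured had lower values. In single pairs of libraries, 0 of the 10 genes were past 2-fold in either direction. Of all measured genes 5.22% were past 2-fold higher and 1.87% lower in WT, and 1.9% higher and 5.95% lower in the libraries labelled KO. In the fit over both genotypes, 0 of the 9 measured members passed edgeR's quasi-likelihood test in either direction, beside 2.21% of genes called higher and 1.14% called lower. At an unadjusted p under 0.05 there were 4 members (Spry1, Dusp1, Dusp7 and Spred1). The share of all genes at that threshold was not counted, so nothing is read from this number. After adjustment, DESeq2 and limma-voom also called 0 members. With 1 residual degree of freedom, this does not show that the genes were level.

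Spry1 had the smallest adjusted p, with a fitted log2 step of -0.569 ± 0.187 (SE, edgeR adjusted p = 0.0644). Its ratio of group 3 to group 2 was 0.609 (0.522 to 0.71) in WT and 0.743 (0.653 to 0.844) in the libraries labelled KO, so the value was lower in both pairs. Spred1 was close to it, at ratios of 0.701 (0.568 to 0.863) and 0.686 (0.554 to 0.848) and a fitted log2 step of -0.528 ± 0.233 (edgeR adjusted p = 0.304). Both genes were lower in group 3 of each genotype, and neither passed the test.

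Dusp7 and Dusp1 had the largest positive steps. Dusp7 had ratios of 1.68 (1.36 to 2.07) in WT and 1.36 (1.15 to 1.6) in the libraries labelled KO, with a fitted log2 step of 0.587 ± 0.218 (edgeR adjusted p = 0.147). Dusp1 had ratios of 1.39 (1.34 to 1.43) and 1.2 (1.17 to 1.23), with a fitted step of 0.365 ± 0.13 (edgeR adjusted p = 0.112). For Dusp6 the ratios were 1.08 (1.01 to 1.15) and 1.34 (1.27 to 1.41), and its fitted step of 0.267 ± 0.145 had an adjusted p of 0.535 in edgeR.

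Dusp5, Dusp4 and Dusp10, the genes past 2-fold by genotype in group 2, had step ratios between 0.956 and 1.12. Dusp5 had ratios of 1.11 (1.04 to 1.17) and 1.12 (1.08 to 1.16) and a fitted step of 0.155 ± 0.138 (edgeR adjusted p = 0.88). Dusp4 had ratios of 1.02 (0.811 to 1.29) and 1.01 (0.871 to 1.18), with both intervals holding 1. Dusp10 had a ratio of 1.12 (1.06 to 1.18) in WT and 0.956 (0.919 to 0.993) in the libraries labelled KO, and a fitted step of 0.0445 ± 0.139 (edgeR adjusted p = 0.999). Dusp2 had ratios of 1.07 (1.04 to 1.1) and 1.11 (1.08 to 1.14). The median log2 step of the 10 genes was 0.128 in WT and 0.0842 in the libraries labelled KO. Without Spry2, the median of the 9 measured members was 0.11 and 0.15. For all measured genes it was -0.00592 and -0.0058.

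**Figure D3:**
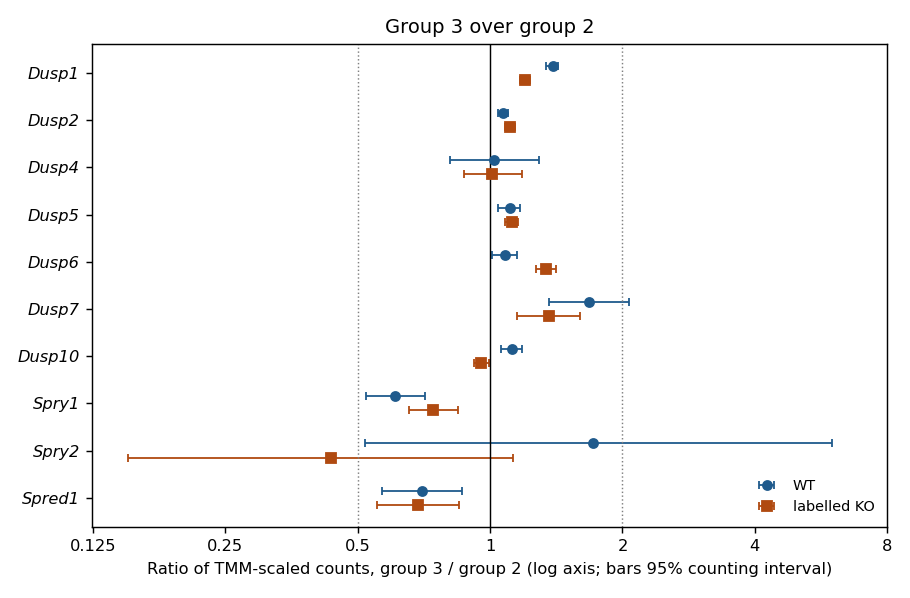
Ratio of group 3 to group 2 (horizontal log axis) for the 10 genes (vertical axis) in WT (circles) and in the libraries labelled KO (squares), with 95% counting intervals as bars and dotted lines at 2-fold. Spry1 and Spred1 lie below 1 in both genotypes, Dusp7 and Dusp1 lie above 1 in both, and Dusp10 lies at 1.12 in WT and 0.956 in the libraries labelled KO.

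The rest of the pathway was read from lists of other DUSP genes, other Ras and ERK brakes, the ERK cascade, and the p38 and JNK cascades, which together name 100 genes that are not members. Of these, 82 were measured. For the genotype effect over both sorted groups, 4 were called higher and 0 lower by edgeR, with a median log2 fold of 0.0739, where 2.95% of all genes were called higher and 1.87% lower with a median of 0.0014. At an unadjusted p under 0.05, 6 were higher and 3 lower, but the share of all genes at that threshold was not counted. DESeq2 called 0 lower. Mapk3, which encodes the kinase ERK1, had 23.1, 20.8, 25.6 and 21.9 CPM and a fitted log2 fold of 0.11 ± 0.226 (edgeR adjusted p = 0.94), and so did not pass the test.

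Among 10 measured other DUSP genes of 19 listed, Dusp28 alone was called higher in the libraries labelled KO, at 6.48, 6.86, 12.8 and 15 CPM and a fitted log2 fold of 1.05 ± 0.314 (edgeR adjusted p = 0.0223). Among 19 measured Ras and ERK brakes it was Errfi1, an inhibitor of the EGF receptor, at 0.742 ± 0.208 (edgeR adjusted p = 0.0125). In the ERK cascade, 1 of 29 measured genes was called higher, Lat, the adaptor that links the T cell receptor to Ras, at 0.399 ± 0.126 (edgeR adjusted p = 0.0358). In the p38 and JNK cascades, 1 of 24 was called higher, Gadd45a, a stress gene that activates the p38 branch, at 0.846 ± 0.182 (edgeR adjusted p = 0.00027). DESeq2 called 1 of these 4 genes, Gadd45a, at an adjusted p of 0.0457, and with any 1 library left out (and sorted group out of the model) none of the 4 was called.

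The step from group 2 to group 3 called 4 of the 82 pathway genes higher and 2 lower by edgeR, and 0 of them by DESeq2. Those higher were Rras2, a Ras relative, at a fitted log2 fold of 0.745 ± 0.173 (edgeR adjusted p = 0.00134), Map3k3 at 0.711 ± 0.176 (0.00344), the Ras inactivator Rasa3 at 0.689 ± 0.178 (0.00561) and the ERK kinase gene Map2k1 at 0.573 ± 0.159 (0.014). Those lower were the Ras activator Rasgrp4 at -1.39 ± 0.372 (edgeR adjusted p = 0.00926) and Dusp16, a JNK phosphatase, at -0.997 ± 0.287 (0.0203). Dusp16 was at 14.4 CPM in WT group 2, 9.19 in WT group 3, 18.2 in labelled KO group 2 and 7.15 in labelled KO group 3.

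**Figure D4:**
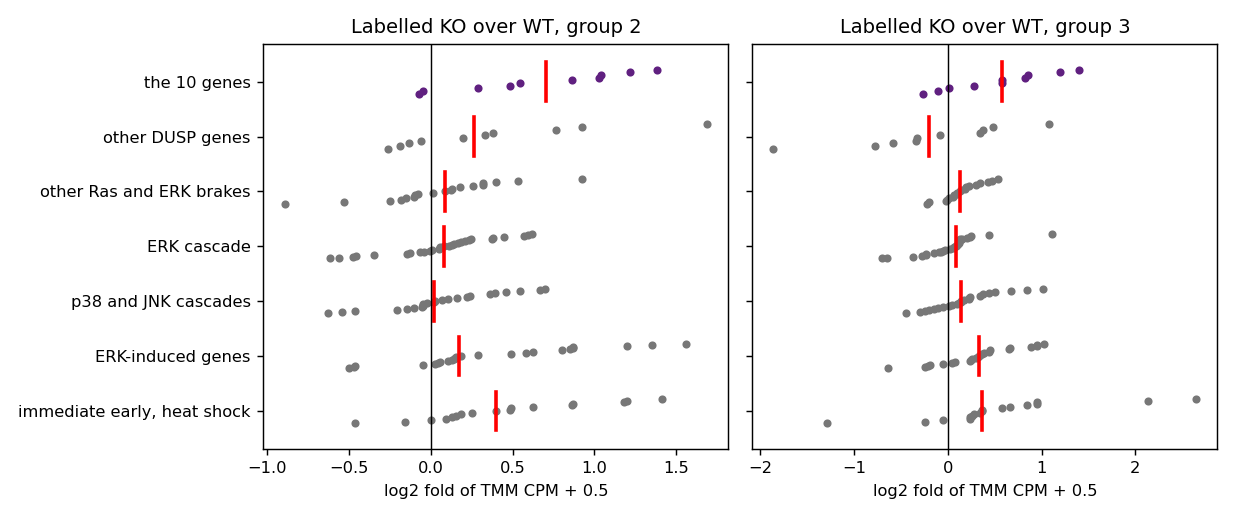
Log2 fold of the library labelled KO over WT (horizontal axis) for the genes of each list (vertical axis), in group 2 on the left and group 3 on the right. Each point is 1 gene, red bars are medians, the 10 genes are purple, and all other lists show measured genes only; the median of the 10 genes is 0.705 in group 2 and 0.574 in group 3.

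Of 24 measured early genes that ERK induces, edgeR called 5 higher in the libraries labelled KO and 0 lower, with a median log2 fold of 0.286, beside 2.95% and 1.87% of all genes tested. The list was chosen with earlier results of these data known, and the genotype difference of Dusp5 prompted the topic. Its genotype counts and p-values are therefore a description and no independent test. At an unadjusted p under 0.05, 7 were higher and 2 lower, again without a share of all genes to set beside them. Junb had the largest called fold at 1.08 ± 0.129 (edgeR adjusted p = 4.26e-14). Nr4a1, a marker of T cell receptor signal strength, had 366, 390, 670 and 799 CPM and a fold of 0.953 ± 0.137 (edgeR adjusted p = 1.03e-09). Ier2 was higher by 0.766 ± 0.138 (edgeR adjusted p = 3.83e-06), and Egr1 by 0.722 ± 0.141 (edgeR adjusted p = 2.99e-05). Cd69, by which both populations were sorted, had 641, 525, 619 and 664 CPM. In the step to group 3, 4 of the 24 were called higher, beside 2.21% of all genes, with Junb at 0.707 ± 0.128 and Egr1 at 0.696 ± 0.141 (edgeR adjusted p = 5.12e-06 and 8.54e-05). With any 1 library left out and genotype out of the model, the step of Junb ran from 0.111 to 1.39 and that of Egr1 from 0.201 to 1.15, and Junb, Egr1 and Ier2 kept 0 of 4 step calls. In the like fits for genotype, Nr4a1 kept 3 of 4 calls, Junb 2 and Ier2 1.

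The same early genes respond to tissue dissociation, and Dusp1 itself is on the list of 18 immediate early and heat shock genes that handling induces. Of 17 measured genes of that list, edgeR called 7 higher in the libraries labelled KO, with Dusp1 not among the 7, beside 2.95% of all genes. None was lower at an unadjusted p under 0.05, a threshold at which all genes were not counted. In group 3, 4 were called higher, beside 2.21% of all genes. This list too was chosen with earlier results of these data known, so its genotype calls are a description. Socs3, a cytokine-induced feedback gene, was higher by 1.05 ± 0.269 (edgeR adjusted p = 0.00412). The heat shock gene Hsp90aa1 had 76.2, 77.4, 76.2 and 490 CPM, high in labelled KO group 3 alone. The summed level of 12 myeloid markers was 62.2, 71.8, 94.5 and 142 CPM, led by Lyz2, with 2 markers at 0 in WT group 3. The neutrophil gene Ngp, named after its values were seen, had 0.191, 0.735, 0.226 and 21.4 CPM, so it too was high in labelled KO group 3 alone. The part of handling and of myeloid cells in the genotype ratios of the members was not tested.

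The summed level of 10 markers of stroma and endothelium, led by Pecam1, was 109, 120, 126 and 127 CPM, with up to 1 at 0, and its part in the ratios was not tested. The 6 B cell markers, led by Ighm, lay between 783 and 1113.2 CPM in sum, the 5 erythroid markers, led by Hbb-bs, between 361 and 537, and the 6 markers of thymic epithelium, led by Epcam, between 27 and 33.7 with up to 3 at 0. In these 3 lists the genotypes overlapped.

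The gene whose profile over the 4 libraries lay nearest to that of Dusp5 was Dusp4. Nearness was the Euclidean distance of centred log2 CPM profiles among 8589 named genes with 10 CPM in at least 1 library, and it was 0.225 for Dusp4. After it came Rsad2 at 0.234, Klf11 at 0.236, Cebpb at 0.265 and Gk5 at 0.285. A profile here has 4 values. Among the members, Dusp10 ranked 27, Dusp6 122 and Dusp7 184, and the early gene Dusp1 ranked 604. Spry1 ranked 1538, Dusp2 4084 and Spred1 6588. Of the members ranked, Dusp4 and Dusp10 stood nearest to Dusp5, and Spred1 farthest from it. The profile of Dusp5 is mainly its genotype difference, which prompted the choice of the genes. The order of the members therefore largely restates their genotype folds and is no separate result.

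Genes around Dusp5 had smaller genotype folds than Dusp5, but its fold prompted the choice of the genes, so nothing is read from this. Within 1 Mb, 12 genes were measured and 1 was called higher by edgeR in the libraries labelled KO, beside 2.95% of all genes. It was the RNA gene Mirt1, which lies 64.3 kb upstream. Mirt1 had log2 folds of 0.532 and 0.922 in group 2 and group 3 (edgeR adjusted p = 0.0164). Smc3, a subunit of the cohesin ring 58 kb downstream, had folds of 0.163 and -0.0627. Around Dusp4, 1 of 10 measured genes was called higher, Saraf, at folds of 0.492 and 0.439 (edgeR adjusted p = 0.0125). Around Dusp10, with 8 measured genes, the smallest adjusted p by edgeR was 0.158, for 1700056E22Rik.

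**Figure D5:**
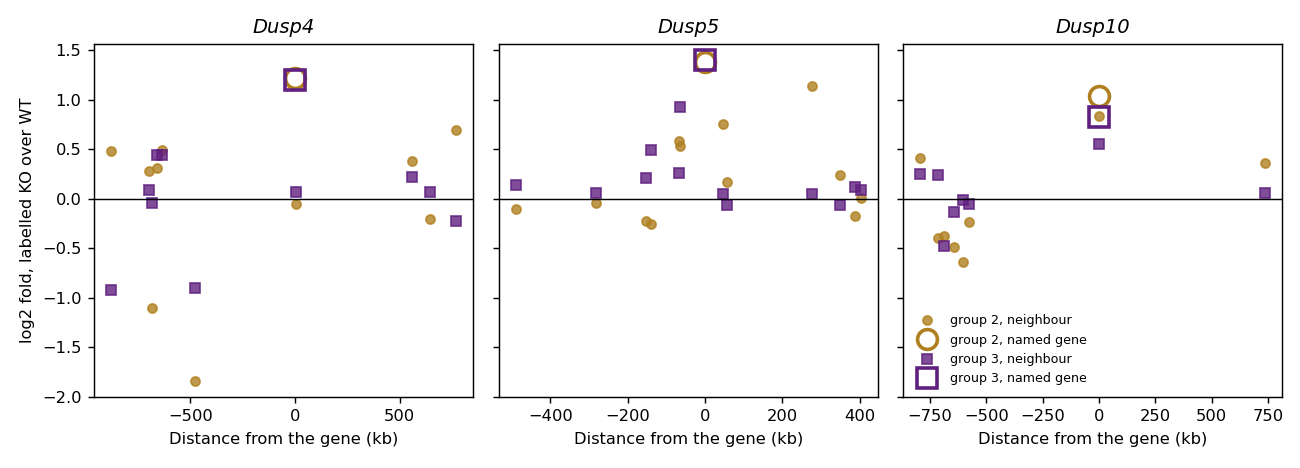
Log2 fold of the library labelled KO over WT (vertical axis) against distance in kb (horizontal axis) for the measured genes within 1 Mb of Dusp4, Dusp5 and Dusp10. Filled points are neighbours and large open symbols the named gene, with circles for group 2 and squares for group 3. Dusp5, whose fold prompted the choice of the genes, lies above all 12 of its neighbours in both groups.

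Some members share bases with other genes, and the strand setting of the counting is not given in the sources used here. An antisense gene, AC137853.2, overlaps the start of Dusp5 and holds 20.5% of its exonic words of 50 bases, and Gm42922 holds 21.8% of those of Spry1. Neither has a row in the count table, and reads of these stretches cannot be told apart. The antisense gene 1700056E22Rik overlaps Dusp10 and had 85, 81, 131 and 141 counts, with log2 folds of 0.832 and 0.556 between the genotypes, beside 2908, 2524, 5060 and 5202 counts for Dusp10. Ergic1 overlaps the long form of Dusp1 on the other strand and had 504, 477, 467 and 508 counts, beside 7673, 8276, 9060 and 11683 for Dusp1. Dusp1, Dusp10 and the remaining members share no exonic word of 50 bases with another gene.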

How the data were processed

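The authors deposited 1 table with raw counts of Ensembl genes in the 4 libraries, and RPKM per library. The submitters' processing notes name TopHat2 2.0.12 and mm10; what counted the reads, with which annotation and strand, is not given in the sources used here. The deposited RPKM and counts implied whole gene lengths within 0.01 bp for 100% of counted genes. Of 35275 IDs, 34490 matched GENCODE M21.

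Counts were scaled with TMM factors in edgeR 4.0.16 (R 4.3.3). Measured genes reached 2 CPM in 1 library or more. Ratios of 2 libraries have exact conditional binomial 95% intervals (Clopper-Pearson), which cover counting error only; log2 folds use CPM plus 0.5. Sorted group and genotype effects were fitted additively with edgeR's quasi-likelihood test (12490 genes, Benjamini-Hochberg adjustment at 0.05, leaving 1 residual degree of freedom). The single libraries of a group allow no estimate of spread between mice, so p-values rest on the misfit of the additive model across genes. The scripts were tested on simulated counts. Alternatives were DESeq2 1.42.0, limma-voom (limma 3.58.1), other scalings, filters and pseudocounts, robust shrinkage, no covariate, and leaving out each library.

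The members and lists were chosen with earlier results of these data known, so genotype calls within the lists are descriptions and not independent tests. Named genes were the members, Uba3, up to 3 called genes per list, effect and direction, Mapk3, Nr4a1, Egr1, Cd69, the 5 genes nearest to Dusp5, measured neighbours within 1 Mb and the most abundant gene of each marker list; Ergic1, 1700056E22Rik and the other overlapping genes were added, and 1 gene that the rule takes is not reported here. No value column was left without a sample.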

Additional observations from a re-analysis of the deposited data

Results flagged for a closer look

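Dusp10, the phosphatase that prefers p38 and JNK, moved in opposite directions from group 2 to group 3 in the 2 genotypes. Its ratio of group 3 to group 2 was 1.12 (95% counting interval 1.06 to 1.18) in WT and 0.956 (0.919 to 0.993) in the libraries labelled KO. With 1 library per group the difference was not tested. The 2 log2 folds differ by 0.223, less than the standard deviation of 0.489 that the common dispersion gives such a difference. That value is pooled over genes of all levels and was not estimated for Dusp10 itself.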

How the results depend on the processing

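The counts of members past 2-fold kept their values under DESeq2 size factors and a pseudocount of 2 CPM; with plain library totals or the deposited RPKM, 2 rather than 3 members were past 2-fold in group 2. Of single member folds under other settings, 152 stayed within the counting interval, 8 (Dusp1 and Dusp2, plain totals or RPKM) moved. Of these, Dusp2 in group 3, whose interval holds 1, went from a log2 fold of 0.012 to -0.0358; no fold whose interval excludes 1 changed sign. Every alternative run called 0 members in the step. The calls among the 82 pathway genes were less stable. For the step, 4 called higher became 0 with DESeq2, 2 with filterByExpr and 0 without genotype in the model, and 2 called lower became 0 with DESeq2, 0 with limma-voom, 1 with filterByExpr, 1 with no filter (genes without counts left out) and 0 without genotype. For the genotype effect, 4 called higher became 1 with DESeq2, 1 with filterByExpr, 2 with no filter and 0 without sorted group. Over all genes, DESeq2 called 100 higher and 39 lower in place of 276 and 143 for the step, and 125 and 54 in place of 368 and 234 for the genotype effect; filterByExpr gave 169, 57, 195 and 104, no filter gave 83 lower for the step and 244 and 125 for genotype, and models without the other factor gave 9, 5, 17 and 6. With 1 library left out the additive model has no residual degree of freedom, so each step is the fold of the other genotype; for Dusp10 this turns to -0.0655 without either WT library and is 0.157 without either labelled KO library. A test was possible only without the other factor, an alternative chosen after seeing the data. The 3 libraries are then unbalanced, so the genotype difference enters the step by construction. The fitted step then ran from -0.711 to 0.782 for Dusp4 (-0.466 without WT group 2), from -0.706 to 1.02 for Dusp5 (-0.375 without WT group 2), from -0.187 to 0.671 for Dusp6 and from -0.457 to 0.631 for Dusp10 (-0.421 without WT group 2). With the sign kept, it ran from 0.179 to 1.07 for Dusp7, from 0.127 to 0.62 for Dusp1, from -0.868 to -0.287 for Spry1, from -0.579 to -0.475 for Spred1 and from 0.104 to 0.142 for Dusp2. The genotype fold of Hsp90aa1 ran from -0.00883, without labelled KO group 3, to 2.67. Socs3 kept its genotype call in 0 of 4 such fits, and Ccr7 its step call in 4. These fits called 0 to 0 pathway genes in each direction and effect, and over all genes 2 to 36 higher and 5 to 10 lower for the step and 25 to 80 and 11 to 42 for genotype. No paired analysis was possible because each group has 1 library and the labels give no replicate numbers.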
